A study of Mus musculus with 7 samples.

Results

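The voltage-gated potassium channel (Kv) subunit genes are described here in RNA-seq data of cultured mouse oligodendroglia with and without the transcription factor KLF13. Members were the genes whose symbol joins Kcn, a letter of the Kv families (a, b, c, d, f, g, h, q, s or v) and a number, which gave 40 of the 49315 gene identifiers counted. Each of the 40 had at least 1 read in at least 1 library, 27 had at least 10 reads in every library, and 36 had enough reads to be tested. The 7 libraries came from 4 cultures of wildtype control pups (labelled Klf13-wt) and 3 cultures of pups with a constitutive Klf13 knockout (labelled Klf13-ko), in which the gene is missing from all cells of the animal and not only from oligodendroglia. The cells were isolated from the brains of newborn mice of both sexes by shake-off from mixed glial cultures with depletion of microglia, and both groups were then kept for 6 days in differentiation medium (SATO) with thyroid hormones. The labels call the samples biological replicates and do not say how many animals went into a culture.

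A Kv channel is a ring of pore-forming subunits that opens when the membrane depolarizes and lets potassium leave the cell. Subunits of the Kv1, Kv2, Kv3, Kv4, Kv7 and EAG/ERG/ELK families form working channels on their own, whereas those of the Kv5, Kv6, Kv8 and Kv9 families are electrically silent and alter Kv2 channels by joining them. Delayed rectifier and A-type currents carried by such channels are known from oligodendrocyte precursor cells (OPC) and shrink as these cells mature, and Kv1 subunits have been linked to OPC proliferation.

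KLF13 binds GC- and CACCC-type motifs, so promoters are printed for 4 Kv genes, the 2 lower and the 2 higher ones with the smallest adjusted p among those with a promoter in the table used. Each runs 5′ to 3′ on the gene's strand from 250 bases before to 50 bases after an annotated start in RefSeq (GRCm38.p6), and capitals mark, on either strand, the 6-letter word NCNCCC with A or C as its first N and A, G or T as its second, with overlapping matches merged. Kcna2 and Kcna6 were lower in the knockout, and Kcna3 and Kcnd3 were higher.
Kcna2, chr3:107101317-107101616, plus strand: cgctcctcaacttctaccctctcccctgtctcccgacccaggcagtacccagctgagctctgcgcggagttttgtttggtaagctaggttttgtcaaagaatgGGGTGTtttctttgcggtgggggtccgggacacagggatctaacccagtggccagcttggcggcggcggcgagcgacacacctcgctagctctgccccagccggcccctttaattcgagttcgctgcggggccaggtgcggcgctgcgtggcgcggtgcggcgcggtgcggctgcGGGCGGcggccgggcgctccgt
Kcna6, chr6:126740625-126740924, minus strand: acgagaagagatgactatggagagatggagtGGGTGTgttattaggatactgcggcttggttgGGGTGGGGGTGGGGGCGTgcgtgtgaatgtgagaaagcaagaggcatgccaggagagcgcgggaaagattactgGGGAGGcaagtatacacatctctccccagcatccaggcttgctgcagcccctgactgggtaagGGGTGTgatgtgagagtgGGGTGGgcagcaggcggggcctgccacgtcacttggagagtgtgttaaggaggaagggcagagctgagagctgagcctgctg
Kcna3, chr3:107035912-107036211, plus strand: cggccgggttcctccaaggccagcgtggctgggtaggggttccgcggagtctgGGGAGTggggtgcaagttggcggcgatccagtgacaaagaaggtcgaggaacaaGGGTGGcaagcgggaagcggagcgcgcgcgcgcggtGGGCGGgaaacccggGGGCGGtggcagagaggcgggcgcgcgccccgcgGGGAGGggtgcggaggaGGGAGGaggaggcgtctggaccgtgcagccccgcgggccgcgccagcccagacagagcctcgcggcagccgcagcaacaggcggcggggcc
Kcnd3, chr3:105451640-105451939, plus strand: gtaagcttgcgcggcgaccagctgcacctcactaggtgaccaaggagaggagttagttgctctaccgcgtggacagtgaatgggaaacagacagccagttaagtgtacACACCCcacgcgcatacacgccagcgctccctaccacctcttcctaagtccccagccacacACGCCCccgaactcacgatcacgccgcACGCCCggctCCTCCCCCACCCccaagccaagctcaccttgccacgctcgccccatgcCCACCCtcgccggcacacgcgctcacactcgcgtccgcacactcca

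The 300 bases of Kcna2 held 2 such words, those of Kcna6 held 7, and those of Kcna3 and Kcnd3 held 6 each. The words are short and common: at least 1 was found in 76.8% of all 32851 promoter windows in the RefSeq table, with a median of 2 per window. A window was given for 25 of the 40 Kv genes (30 windows in all), each window held at least 1 word, and their median was 5. Windows with the words were found alike for all 10 genes with a window that were higher, for both genes with a window that were lower and for all 10 that did not pass the test. A match shows only that these letters are present.

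The knockout was seen in the reads of Klf13 itself, which gave 10915, 11769, 12000 and 10670 normalized counts in control replicates 1 to 4, against 802, 876 and 961 in knockout replicates 1 to 3. These values are reads per gene brought to the same scaled depth in every library. The fold change was -3.69 on the log2 scale (SE 0.09, adjusted p = 6.77e-06 in edgeR's quasi-likelihood test). Counts on genes ranged from 24507471 (knockout replicate 1) to 59596479 (knockout replicate 2). The Kv genes together took 0.103% to 0.139% of them. Reads on Gm42418, Gm23935 and Lars2 were taken as ribosomal RNA-derived, which was not tested. They took 6.03% to 17.95%, with control replicates 1 and 4 and knockout replicates 1 and 3 above 10%. All adjusted p-values were from that test with Benjamini-Hochberg adjustment over 18352 genes, and "higher", "rose", "lower" and "fell" are used of genes whose adjusted p did not exceed 0.05.

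Of the 36 tested Kv genes, 18 were higher and 4 lower in the knockout. Over all genes tested, 11.6% were higher and 12.2% lower. With a log2 fold change of at least 1 in size as well, 13 Kv genes were higher and none was lower, against 3.97% and 3.08% of all genes. None of the 36 combined an unadjusted p of at most 0.05 with a log2 fold change of -1 or less, and DESeq2 called none at that size either. The groups did not overlap for 21 Kv genes above and 5 below the controls, where 18.3% and 18.0% of all genes were free of overlap in these directions. The median log2 fold change of the 36 genes was 0.76, compared with 0.00 for all tested genes. Knockout replicate 2 weighed most on the number of calls: without it 5 Kv genes were higher (4 of them by 1 log2 unit or more) and 2 lower, and the shares of all genes tested fell as well, to 4.57% higher and 7.08% lower. Without knockout replicate 1 the counts were 9 (8 of them by 1 log2 unit or more) and 1, against 6.35% and 6.58% of all genes, and without knockout replicate 3 again 2 genes were lower. Within the 4 libraries above 10% ribosomal RNA-derived reads, 26 of the 36 Kv genes had a positive fold change, compared with 28 in all libraries. Over all genes tested, 50.8% and 49.6% were positive in these fits, respectively. Within those 4 libraries 6 Kv genes were higher and 3 lower, against 3.54% and 5.58% of all genes. That fit kept the calls of 9 of the 22 Kv genes called in all libraries and of 36.0% of all called genes. Within the 3 libraries below 10%, which hold only 1 knockout, edgeR called 0 of 18767 genes in either direction, so that fit bears on no single call and only its fold changes are given. There 29 of 37 Kv genes had a positive fold change, against 46.7% of all genes. For single genes, the 14 settings counted below are DESeq2, other scalings and filters, the replicate block and each library left out, and the fits by ribosomal class are given apart from them.

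**Figure D1:**
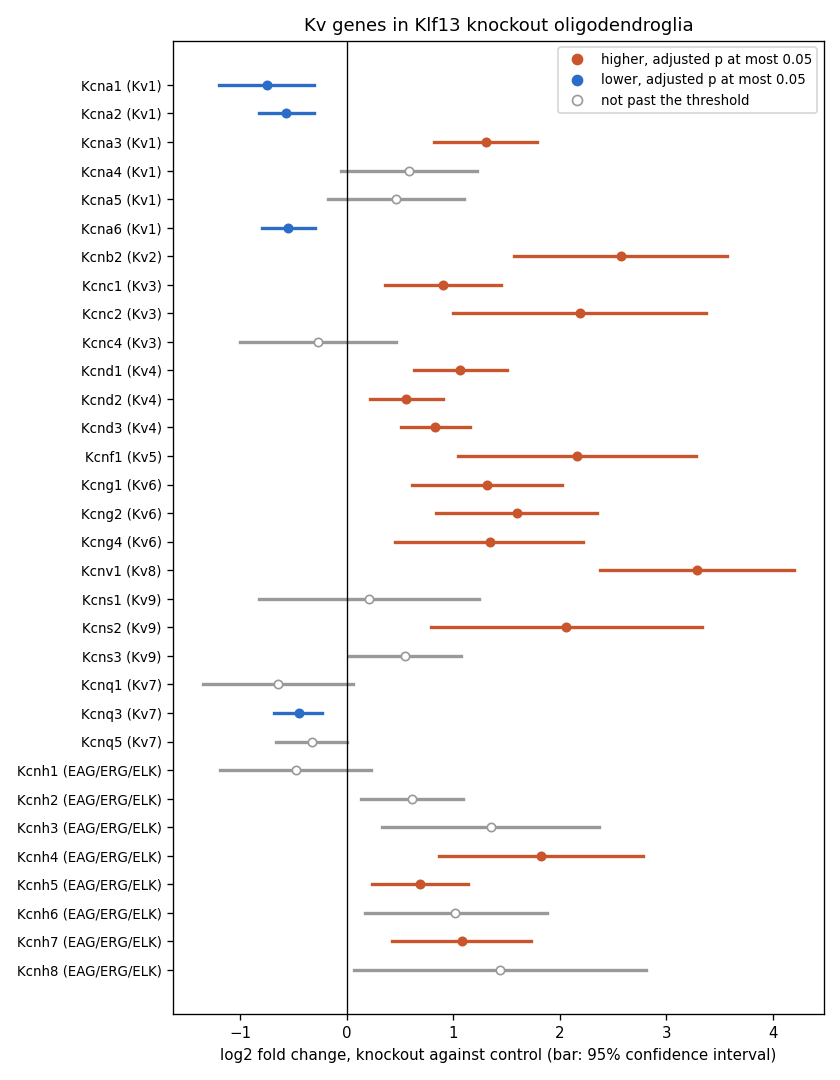
Log2 fold change, knockout against control, of 32 tested Kv genes (points) with 95% confidence intervals (bars), ordered by family. Filled points mark 16 genes that were higher and 4 that were lower at the threshold, and open grey points 12 that did not pass. Kcnv1 lies farthest to the right at 3.29, and the lower genes lie between -0.75 and -0.45.

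Levels of different genes were compared per kilobase of exon, as normalized CPM per kilobase. On this scale the Kv1 family made up 78.8% ± 3.62 (SD, n = 4) of the summed Kv level in the controls and 61.6% ± 3.87 (SD, n = 3) in the knockouts, and the ranges of 75.0% to 83.4% and 57.2% to 64.6% did not overlap. Kcna1 alone held 54.9% ± 5.47 of the Kv level in the controls and 39.0% ± 3.40 in the knockouts. The share of Kv4 was 7.60% ± 1.72 in the controls and 14.8% ± 1.18 in the knockouts. The summed level of all Kv genes, 169 to 246 in the controls and 162 to 177 in the knockouts, overlapped between the groups. The shares of one library add up to a whole, so a smaller Kv1 share enlarges the others.

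Split by family, the summed Kv1 level was 151, 145, 135 and 205 in control replicates 1 to 4, against 115, 96.9 and 102 in knockout replicates 1 to 3, a ratio of means of 0.656. All other families together had 34.1 to 48.1 in the controls and 60.0 to 72.5 in the knockouts, a ratio of 1.55. The ratio was 1.44 for Kv3, 1.67 for Kv4, 1.16 for Kv7, 1.11 for EAG/ERG/ELK, 4.47 for Kv5, 2.47 for Kv6, 9.60 for Kv8 and 1.66 for Kv9. The silent families together had 2.21 ± 0.974 (highest 3.42) in the controls and 8.18 ± 1.88 (lowest 6.62) in the knockouts. Only the EAG/ERG/ELK family overlapped between the groups, with 6.75 to 13.5 in the controls and 9.74 to 11.5 in the knockouts. The EAG/ERG/ELK ratio was 0.889 within the libraries above 10% ribosomal reads, 1.43 within those below and 1.00 without control replicate 3, so its direction differed between these fits. For Kv3 the margin was small, since the highest control was at 9.88 and the lowest knockout at 9.89. These sums are descriptions without a test: an exact two-sided permutation test of 4 against 3 libraries cannot give a p below 0.0571.

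**Figure D2:**
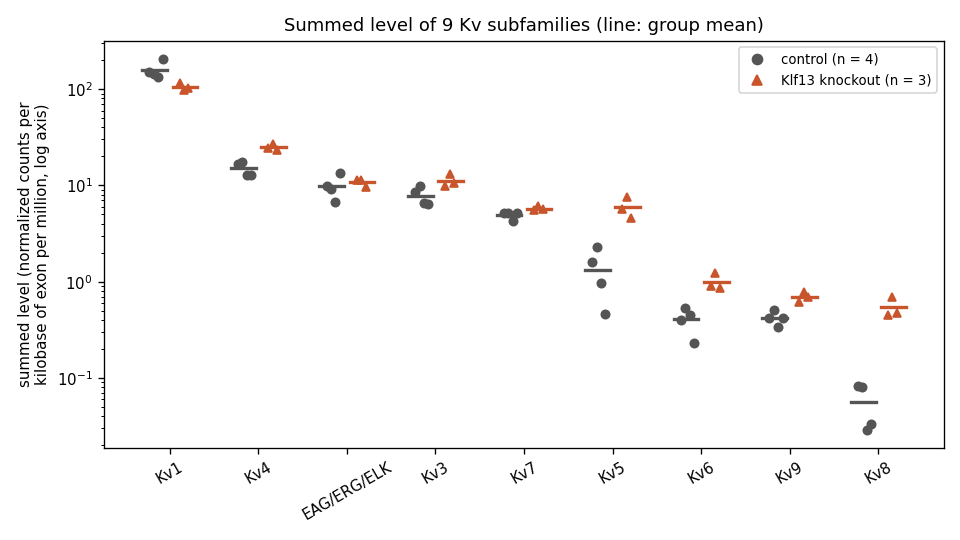
Summed level of 9 Kv families (normalized CPM per kilobase of exon, logarithmic axis) in 4 control (grey circles) and 3 knockout libraries (orange triangles), with lines at the group means. Kv1 lies lower in all 3 knockouts (96.9 to 115 against 135 to 205), EAG/ERG/ELK overlaps, and the other 7 families lie higher in the knockouts.

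Among the Kv1 genes, the 3 most abundant fell and Kcna3 rose. Kcna1, a subunit of low-threshold delayed rectifier channels and the Kv gene with the highest level, gave 21440, 20301, 19438 and 32405 normalized counts in control replicates 1 to 4, against 15648, 12563 and 13459 in the knockouts. The groups did not overlap, but control replicate 4 stood well above the other controls. The log2 fold change was -0.75 (SE 0.19, adjusted p = 0.0284). Without the filter on low counts, without control replicate 1 or without any 1 of the knockouts, it was no longer called (adjusted p up to 0.102).

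Kcna2, which forms mixed channels with the Kcna1 product, gave 10537, 9131, 8848 and 11223 normalized counts in the controls, against 6700, 6026 and 7419 in the knockouts. All knockouts lay below all controls, with a log2 fold change of -0.57 (SE 0.11, adjusted p = 0.0108, and 0.0553 without knockout replicate 1). Kcna6, a further delayed rectifier subunit of the same family, gave 6443, 6725, 5617 and 6721 in the controls, against 5052, 3912 and 4140 in the knockouts. The log2 fold change of Kcna6 was -0.55 (SE 0.11, adjusted p = 0.0112), and it was lower in all 14 settings, with adjusted p-values of up to 0.0453. Within the libraries above 10% ribosomal reads Kcna6 was still lower (adjusted p = 0.0430), and within those below 10% its log2 fold change was -0.67. Of the exon bases of Kcna6, 39.6% are shared with Gm26673 on the other strand, which had 154 counts in all against 37479 for Kcna6, and the strand setting of the counting was not stated.

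Kcna3, known from lymphocytes and microglia and also from OPC, gave 246, 252, 211 and 144 normalized counts in the controls, against 498, 619 and 466 in the knockouts. Every knockout was well above every control. The log2 fold change was 1.31 (SE 0.21, adjusted p = 0.00557), and the call held in all 14 settings and within the libraries above 10% ribosomal reads (adjusted p = 0.0463). Within those below 10% the log2 fold change was 1.40. Of the other members, Kcna4, the A-type subunit of the family, was at 0.58 (95% confidence interval -0.05 to 1.22) and Kcna5, a delayed rectifier subunit, at 0.46 (-0.18 to 1.10). Neither passed the test (adjusted p = 0.169 and 0.280). Kcna7 (0 to 2 reads per library) and Kcna10 (0 to 5 reads) were too low to be tested.

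The 6 tested Kv1 genes include neighbours in a pair of clusters. On chromosome 3, Kcna3 (107036169 to 107038070, plus strand, GRCm38) lies 65.0 kb from Kcna2 (107101146 to 107115005, plus strand), start to start, and rose while Kcna2 fell. On chromosome 6, Kcna5 (126532551 to 126535412), Kcna1 (126640397 to 126646384) and Kcna6 (126708329 to 126740674) all lie on the minus strand, and the latter 2 genes fell. Direction was thus shared by Kcna1 and Kcna6 and opposed for Kcna3 and Kcna2.

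**Figure D3:**
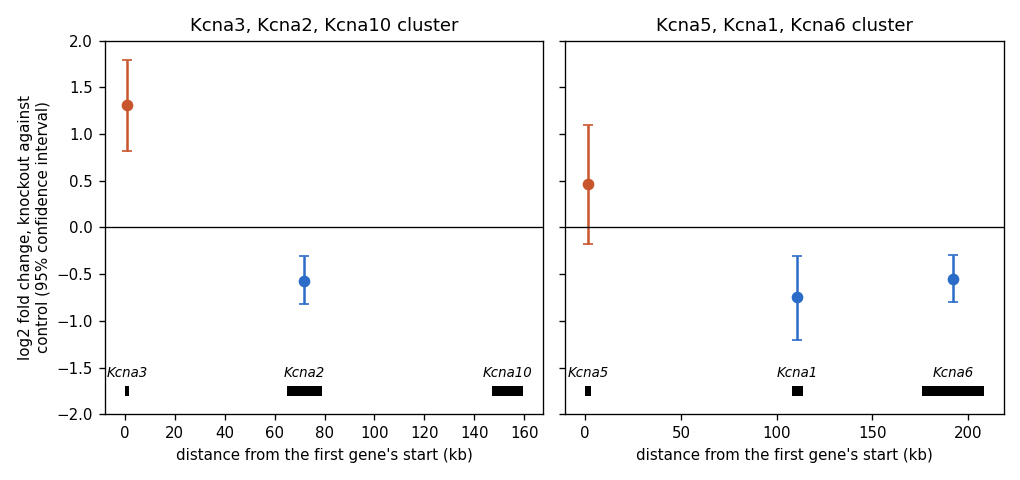
Log2 fold change, knockout against control, of the tested Kv1 genes in the clusters on chromosome 3 (left) and chromosome 6 (right), with 95% confidence intervals, plotted against distance in kilobases from the start of the leftmost gene. Black bars show the extent of each gene, and Kcna10 was not tested. Kcna3 at 1.31 and Kcna2 at -0.57 lie on opposite sides of zero, and the interval of Kcna5 spans zero.

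Of the Kv2 family, whose channels are delayed rectifiers, Kcnb2 rose. It gave 174, 183, 75.4 and 50.5 normalized counts in the controls, against 726, 760.2 and 656 in the knockouts. The lowest knockout was far above the highest control, with a log2 fold change of 2.57 (SE 0.43, adjusted p = 0.00674) that was called in all 14 settings. The call was lost within the libraries above 10% ribosomal reads (2.63, adjusted p = 0.0706), and within those below 10% the log2 fold change was 2.54.

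The silent subunits, which act by joining Kv2 channels, were low in the controls and contributed 6 of the 18 higher genes. Kcnv1, a Kv8 subunit, showed the largest fold change of all tested Kv genes: 16.2, 15.1, 5.72 and 6.55 normalized counts in the controls stood against 88.5, 138 and 89.9 in the knockouts. The log2 fold change was 3.29 (SE 0.39, adjusted p = 0.00179), and over the settings in which it was tested, 13 of the 14, it lay between 3.04 and 3.53 and was called. Kcnv1 was also called within the libraries above 10% ribosomal reads (adjusted p = 0.0243), and within those below 10% its log2 fold change was 3.69. Kcnf1, the only Kv5 subunit, was the most abundant silent gene, with 336, 483, 202 and 98.3 normalized counts in the controls, against 1199, 1589 and 966 in the knockouts. Both groups spread widely without meeting, and the log2 fold change was 2.16 (SE 0.48, adjusted p = 0.0179). The call of Kcnf1 was lost without the filter on low counts (adjusted p = 0.0802) and without knockout replicate 2 (0.0688).

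The 3 tested Kv6 genes rose together from low counts. Kcng1 increased from 11.3 ± 3.22 to 28.4 ± 6.15 normalized counts (log2 fold change 1.32, SE 0.30, adjusted p = 0.0203), Kcng2 from 14.1 ± 4.59 to 41.9 ± 11.0 (1.60, SE 0.32, adjusted p = 0.0127) and Kcng4 from 33.6 ± 15.8 to 84.9 ± 14.1 (1.34, SE 0.38, adjusted p = 0.0405). Among the Kv9 genes, Kcns2 rose from 8.39 ± 4.82 to 33.3 ± 16.0 (2.06, SE 0.55, adjusted p = 0.0326), whereas Kcns3 at 0.55 (0.02 to 1.07, adjusted p = 0.125) and Kcns1 at 0.21 (-0.82 to 1.24, adjusted p = 0.777) did not pass. With the replicate number as a block the calls of Kcng1 (adjusted p = 0.0631), Kcng2 (0.0662) and Kcns2 (0.0647) were lost. Leaving out knockout replicate 2 ended the calls of these genes and of Kcng4 as well, with adjusted p-values from 0.0568 to 0.130. Kcng1 was also lost without knockout replicate 1, and Kcng4 and Kcns2 without control replicate 3 or any 1 of the knockouts, to which control replicate 1 and scaling by total counts added for Kcng4 and control replicate 2 for Kcns2 (adjusted p up to 0.130). Of the exon bases of Kcng2, 9.1% are shared with D330025C20Rik on the other strand, which had 6 counts in all. Kcng3 (2 to 10 reads per library) and Kcnv2 (0 to 5 reads) were not tested.

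All 3 Kv4 genes, the subunits of fast A-type currents, rose. Kcnd3 was the most abundant of them and reached 4238, 4643, 3106 and 3429 normalized counts in the controls, against 6693, 7317 and 6574 in the knockouts. No control came near the lowest knockout, and the log2 fold change was 0.83 (SE 0.14, adjusted p = 0.00656). Kcnd1 rose from 59.2 ± 11.3 to 124 ± 5.79 normalized counts (log2 fold change 1.06, SE 0.19, adjusted p = 0.00805), and like Kcnd3 it was called in all 14 settings. Within the libraries above 10% ribosomal reads Kcnd3 was called (adjusted p = 0.0232) and Kcnd1 was not (0.99, adjusted p = 0.0701), and within those below 10% the log2 fold changes were 0.90 and 1.08. Kcnd2 rose from 1263 ± 213 to 1860 ± 227 (0.56, SE 0.14, adjusted p = 0.0302), a call that was lost without control replicate 3, knockout replicate 1 or knockout replicate 2 (adjusted p up to 0.106).

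Of the Kv3 genes, whose channels serve fast repetitive firing, Kcnc1 and Kcnc2 rose. Kcnc1 gave 1601, 1898, 1116 and 936 normalized counts in the controls, against 2351, 2787 and 2645 in the knockouts (log2 fold change 0.90, SE 0.23, adjusted p = 0.0304). Kcnc2, with a much lower count, increased from 18.7 ± 13.9 to 85.3 ± 20.9 (2.19, SE 0.51, adjusted p = 0.0207). Both calls rested on knockout replicate 2 (without it, adjusted p = 0.101 for Kcnc1 and 0.0773 for Kcnc2), and that of Kcnc1 also on control replicate 3, knockout replicates 1 and 3 and the filter on low counts, with no adjusted p above 0.101. Kcnc4, an A-type subunit gene of this family, was at -0.27 (SE 0.31, adjusted p = 0.591).

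Of the Kv7 family, Kcnq3 fell. It encodes a subunit of the M-channel of neurons, a slow brake on firing, and gave 1099, 1054, 1034 and 1289 normalized counts in the controls, against 861, 764 and 829 in the knockouts. All knockouts lay below all controls, with a log2 fold change of -0.45 (SE 0.10, adjusted p = 0.0157). The call was lost without any 1 of the knockouts (adjusted p up to 0.0630). Kcnq5, a further M-channel subunit, was lower in all 3 knockouts than in all controls but did not pass (log2 fold change -0.33, -0.66 to 0.00, adjusted p = 0.140). Kcnq1, the subunit of the slow cardiac delayed rectifier, was at -0.65 (-1.35 to 0.06, adjusted p = 0.170) on 118 counts in all, and 3.0% of its exon bases are shared with the antisense transcript Kcnq1ot1, which had 14759 counts.

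**Figure D4:**
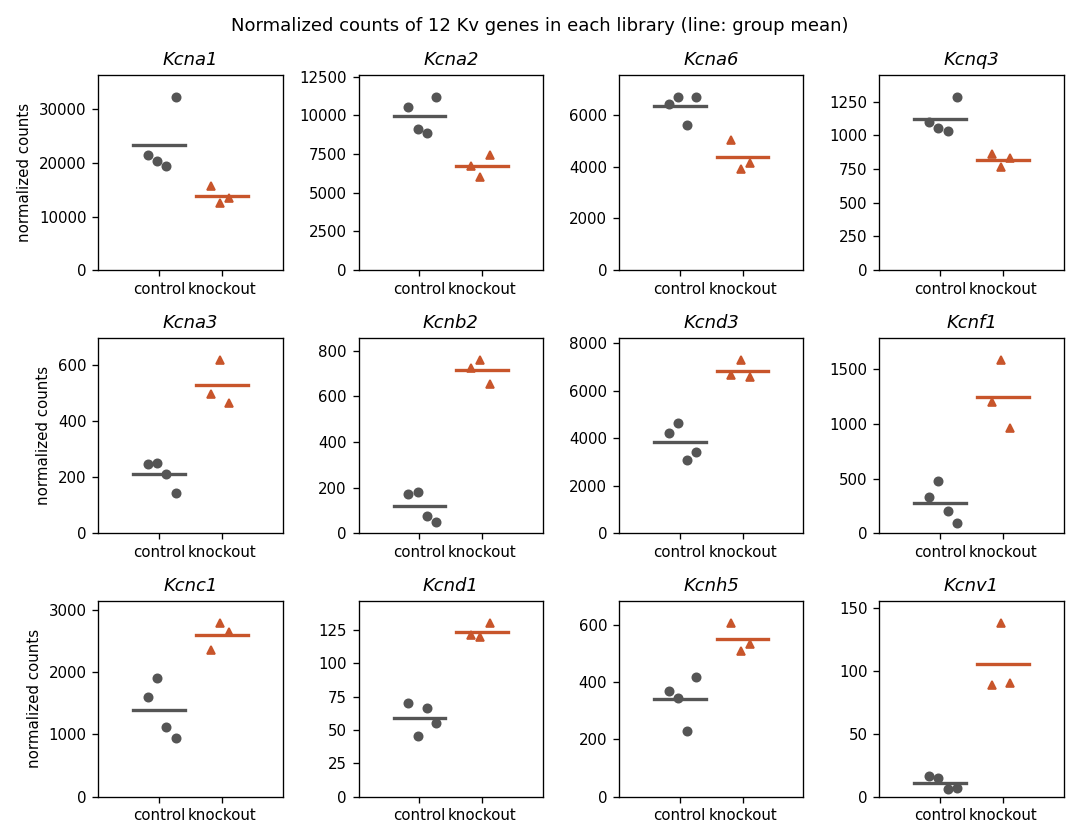
Normalized counts of 12 Kv genes in each of 4 control (grey circles) and 3 knockout libraries (orange triangles), with lines at the group means and axes that start at 0. Kcna1, Kcna2, Kcna6 and Kcnq3 in the top row are lower in the knockouts and the other 8 genes are higher, with no overlap between the groups in any panel.

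In the EAG/ERG/ELK family, 3 of the 8 genes rose and the most abundant did not pass. Kcnh1, an EAG subunit and the sixth Kv gene by mean level, gave 1739, 1545, 1189 and 3089 normalized counts in the controls, against 1504, 1336 and 1238 in the knockouts (log2 fold change -0.48, -1.19 to 0.23, adjusted p = 0.307). As for Kcna1, control replicate 4 was the highest library. The other EAG gene, Kcnh5, rose from 339.9 ± 79.3 to 549.9 ± 50.4 (0.69, SE 0.19, adjusted p = 0.0389). Kcnh7, an ERG subunit, rose from 124 ± 42.3 to 260.3 ± 28.8 (1.08, SE 0.28, adjusted p = 0.0308), and 4.6% of its exon bases are shared with Gca on the other strand, which had 4509 counts in all against 1334 for Kcnh7. Kcnh4, an ELK subunit, rose from 9.36 ± 5.03 to 33.5 ± 2.34 (1.82, SE 0.41, adjusted p = 0.0184).

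All 3 calls were lost without knockout replicate 1 and without knockout replicate 2, those of Kcnh5 and Kcnh7 also without knockout replicate 3, that of Kcnh5 without control replicate 1 or 2 and that of Kcnh7 without control replicate 3 (adjusted p up to 0.123). Kcnh2, the ERG subunit best known from the heart, was at 0.61 (0.13 to 1.09, adjusted p = 0.0684), and Kcnh3, an ELK subunit of the forebrain, at 1.35 (0.33 to 2.37, adjusted p = 0.0609). Both passed with the replicate block (adjusted p = 0.0310 for Kcnh2 and 0.0412 for Kcnh3), with DESeq2 and without knockout replicate 3. The remaining ERG and ELK genes, Kcnh6 at 1.02 (0.17 to 1.88, adjusted p = 0.0841) and Kcnh8 at 1.44 (0.07 to 2.81, adjusted p = 0.121), did not pass.

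Kv channels carry accessory subunits, and of 15 such genes listed, 11 were tested. Of these, 6 rose and 1 fell, beside 11.6% and 12.2% of all genes, and the median log2 fold change was 0.76, against 0.00 for all genes. Among them were 4 partners of Kv4 channels: Kcnip1 (2.07, SE 0.39, adjusted p = 0.00980) and Kcnip2 (529.9 ± 214 to 1496 ± 353 normalized counts, adjusted p = 0.0161), which encode calcium-binding proteins, and Dpp6 (0.76, SE 0.12, adjusted p = 0.00605) and Dpp10 (1.23, SE 0.21, adjusted p = 0.00760), which encode dipeptidyl-peptidase-like proteins, all rose. The call of Kcnip1 was lost within the libraries above 10% ribosomal reads (2.11, adjusted p = 0.0709). Dpp6 gave 2287, 2179, 1637 and 1973 normalized counts in the controls, against 3279, 3797 and 3144 in the knockouts, without overlap. The Kv4 partner with the highest level, Kcnip3, was at 0.06 (SE 0.07, adjusted p = 0.535), and Kcnip4 at 0.39 (SE 0.21, adjusted p = 0.217).

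Amigo1, a membrane protein that accompanies Kv2 channels, rose by 1.16 (SE 0.19, adjusted p = 0.00681), and Kcne1l, a small single-span subunit, by 1.00 (SE 0.22, adjusted p = 0.0179). Kcnab1, a cytoplasmic beta subunit of Kv1 channels, fell by 0.60 on the log2 scale (SE 0.18), but with an adjusted p of 0.0499 that crossed the threshold in 12 of the 14 settings (0.143 with the replicate block). The calls of Kcne1l and Kcnip2 were lost without knockout replicate 2 and that of Kcne1l also without knockout replicate 3 (adjusted p up to 0.0655), and that of Kcnip2 without the filter on low counts. Without control replicates 1 to 4 in turn, as without each knockout, Kcnab1 did not pass (adjusted p up to 0.168).

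Of 13 genes for proteins that scaffold or anchor Kv1 or Kv2 channels, 4 rose and 2 fell, beside 11.6% and 12.2% of all genes, and the median log2 fold change was 0.06. Cntnap2, the adhesion protein that holds Kv1 channels beside the nodes of myelinated axons, rose from 292 ± 118 to 1272 ± 187 normalized counts (2.13, SE 0.33, adjusted p = 0.00558), a call that was lost within the libraries above 10% ribosomal reads (adjusted p = 0.0691). Dlg2 (407 ± 94.2 to 899 ± 144, adjusted p = 0.00691) and Dlg4 (0.61, SE 0.17, adjusted p = 0.0404), which encode postsynaptic density scaffolds, and Lgi1 (2.03, SE 0.52, adjusted p = 0.0291), a secreted partner of Kv1 complexes, also rose. Dlg1, a membrane scaffold of the same family as Dlg2 and Dlg4, fell from 9738 ± 478 to 5155 ± 353 (-0.92, SE 0.07, adjusted p = 2.14e-04), and Lgi3, a relative of Lgi1, fell with a log2 fold change of -1.09 (SE 0.07, adjusted p = 1.08e-04). The calls of Dlg4 and Lgi1 were lost in several settings, among them without knockout replicate 1 and without knockout replicate 2 (adjusted p up to 0.118 for Dlg4 without any 1 library and 0.0960 for Lgi1). Dlg4 was also lost without control replicates 1, 3 or 4 and Lgi1 without knockout replicate 3.

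Some marker lists of the cell types the cultures could hold also differed between the groups. In bulk samples, fewer cells of a type and less RNA per cell cannot be told apart. Mature oligodendrocyte markers were lower in 15 of 15, beside 12.2% of all genes. Their summed level was 3949 to 4276 in the controls and 1213 to 1406 in the knockouts. Cldn11 and Cnp were among the most abundant of them. OPC markers (led by Olig1, Gpr17 and Tnr) were present at 1349 to 1467 and 1374 to 1541, with 3 of 15 higher, beside 11.6% of all genes. Markers of both stages of the lineage were thus detected in both groups.

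Neuron markers (led by Tubb3, Uchl1 and Stmn3) were higher in 16 of 23 tested, beside 11.6% of all genes (1 was lower at an unadjusted p of at most 0.05 but did not pass). Their summed level was 243 to 326 in the controls and 418 to 584 in the knockouts. None of them was at 0 in every library. Their ratio of 1.78 compares with 1.55 for the Kv genes outside Kv1 and 1.64 for the accessory genes. The median log2 fold change was 1.38 for the neuron list, 0.96 for the Kv genes outside Kv1 and 0.76 for the accessory genes. Among the controls, the neuron list and the Kv genes outside Kv1 were both highest in replicate 2, and lowest in replicate 4 and replicate 3, respectively. Among the knockouts, both were highest in replicate 2 and lowest in replicate 3. This order was not particular to the neuron list: the OPC and astrocyte lists had it in the knockouts as well, and the OPC and mature oligodendrocyte lists were also highest in control replicate 2. Of the 16 higher Kv genes named here, 9 had control replicate 2 as their highest control, 11 had control replicate 4 as their lowest control, and 13 had knockout replicate 2 as their highest knockout. The part of neuronal RNA in the higher Kv genes was not tested.

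Astrocyte markers (led by Gfap, S100b and Aldoc) were higher in 9 of 14, beside 11.6% of all genes. However, S100b lay below all controls in the knockouts without passing (log2 fold change -0.54, adjusted p = 0.0923). The list had a summed level of 1171 to 1361 in the controls and 1447 to 1653 in the knockouts. Microglia markers (led by C1qa and C1qb), to which Kcna3 can belong, passed edgeR's test in 0 of 14, and 0 had an unadjusted p of at most 0.05, at 427 to 1828 and 472 to 908, with control replicate 3 the highest library. Fibroblast, mural and endothelial markers (led by Acta2, Col1a1 and Fn1) were lower in 2 of 11 tested and in 7 at an unadjusted p of at most 0.05, where 12.2% and 18.4% of all genes were. Their median fold change was -1.84 on the log2 scale, and their summed level was 97.1 to 282 in the controls and 50.4 to 99.0 in the knockouts. Among the endothelial markers, Cldn5 was at 0 in 6 of the 7 libraries, whereas Cdh5 gave 53.3 to 295 normalized counts in the controls and 7.56 to 53.3 in the knockouts. What these cells added to the Kv values was not tested.

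**Figure D5:**
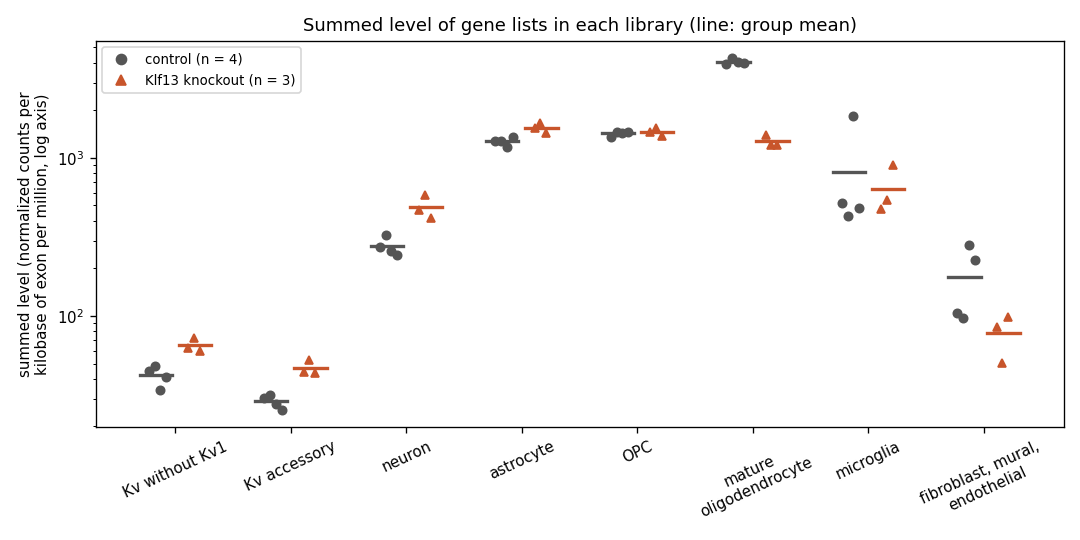
Summed level (normalized CPM per kilobase of exon, logarithmic axis) of the Kv genes outside Kv1, the Kv accessory genes and the marker lists of 6 cell type groups in 4 control (grey circles) and 3 knockout libraries (orange triangles), with lines at the group means. Mature oligodendrocyte markers lie lower in the knockouts (1213 to 1406 against 3949 to 4276), neuron markers (418 to 584 against 243 to 326), astrocyte markers, Kv genes outside Kv1 and accessory genes lie higher, and the other lists overlap.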

How the data were processed

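RNA was sequenced as paired-end libraries of 4 control and 3 knockout cultures. Reads were trimmed with Trimmomatic 0.36, mapped to the mouse genome (GRCm38) with STAR 2.5.2b and counted within exons with featureCounts of Subread 1.5.2, per the submitters' processing notes and the study's methods. The strand setting was not stated. The counts deposited by the authors were whole numbers per gene without normalization. Symbols were assigned to 48970 of 49315 identifiers, and 33 of the 40 Kv genes had the same start, end and strand in GENCODE M21.

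Tests used edgeR 4.0.16 in R 4.3.3 (filterByExpr by group, TMM factors, robust quasi-likelihood fit, group as the only term). The Benjamini-Hochberg adjustment covered 18352 genes. SE is the log2 fold change divided by the square root of F, and intervals are at 95%. The procedure was tested on simulated data. Every Kv gene past an adjusted p of 0.05 and those among the 8 highest mean levels are named, the rest by family. Accessory and scaffold genes are named if they passed, with Kcnip3 and Kcnip4 added after their values were seen, and marker lists by the 3 highest mean levels. Some genes that meet these rules are included in the counts and sums but are not reported here.

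The members and lists were chosen with earlier results of these data known. Alternatives were DESeq2 1.42.0, other scaling and filters, a replicate block, leaving out each library, and, chosen after seeing the data, the ribosomal share class of the libraries. The replicate block treated same-numbered cultures as pairs, which the labels do not state. Same-numbered libraries had correlations across genes of 0.11, 0.46 and 0.17, against -0.53 to 0.20 for different numbers. The values of 0.11 and 0.17 lay within that range, so they do not show a pairing. A count of 0 allows up to 3 counts, 5.03e-06 to 1.22e-05 percent of a library, for counting error only. P-values set the difference between the groups against a spread estimated from these cultures, and the number of animals behind each culture was not stated.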

Additional observations from a re-analysis of the deposited data

Results flagged for a closer look

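In 55 groups of 4 control values, 1 library stood apart from the other controls by Dixon's criterion in 3, and chance gives about 1 in 20. Kcna1 had 32405 normalized counts in control replicate 4, where the other controls had 19438 to 21440. Kcng1 had 16.1 normalized counts in control replicate 2 and 9.36 to 10.3 in the others. The summed level of the Kv7 family per kilobase was 4.31 in control replicate 3 and 5.13 to 5.18 in the others. Without control replicate 4 Kcna1 was still lower in the knockout, without control replicate 2 Kcng1 was still higher, and the ratio of the Kv7 family stayed between 1.11 and 1.20 with any 1 library left out.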

How the results depend on the processing

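Of the 20 called Kv genes that are named, 6 (Kcna3, Kcna6, Kcnb2, Kcnd1, Kcnd3 and Kcnv1) were called in every one of the 14 settings in which they were tested (13 for Kcnv1), the fits by ribosomal class not counted. With 1 library left out, higher Kv genes numbered 5 to 17, those higher by 1 log2 unit or more 4 to 13, lower Kv genes 1 to 4 and lower accessory genes 0 throughout. The lowest counts of higher genes came without knockout replicate 2, where the share of all genes called higher also fell from 11.6% to 4.57%. Across these fits Kcns1 ran from -0.04 to 0.42 and Kcnc4 from -0.72 to 0.00, with the sign turned without knockout replicate 2 (Kcns1) or 3 (Kcnc4), neither of them past the threshold in any setting. At 10 or more counts in every library 27 Kv genes were tested and 8 were higher by 1 log2 unit or more, fewer genes being tested. With the replicate block 17 Kv genes were higher (10 of them by 1 log2 unit or more) and 4 lower, against 9.49% and 11.1% of all genes, and besides the calls given with the results (Kcng1, Kcng2, Kcns2, Kcnab1, Kcnh2 and Kcnh3) it changed no other call of a named gene. The lower accessory gene, Kcnab1, was not called (count 0) with DESeq2 size factors, total counts, upper quartile scaling, no filter, the replicate block or the ribosomal share class as a covariate. With that covariate 19 Kv genes were higher and 4 lower, against 14.4% of all genes in each direction. Within the 4 libraries above 10% the counts were 6 higher (5 by 1 log2 unit or more) and 3 lower, no accessory gene was lower (0), Kcns1 was at -0.37, and the Kv7 ratio was 1.06 and that of EAG/ERG/ELK 0.889. Of the 13 called accessory and scaffold genes, 7 kept their call there, against 36.0% of all called genes. Within the 3 libraries below 10%, with a lone knockout assumed to vary like the controls, edgeR called 0 of all genes, and so 0 Kv genes and 0 accessory genes, in either direction, so it bears on no single call. Kcnc4 was at 0.34 and the Kv7 ratio at 1.28. The median log2 fold change of the Kv genes stayed between 0.59 and 0.90. Kcna7, Kcna10, Kcng3 and Kcnv2, with at most 10 reads in any library, did not pass the filter on low counts.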
